A study of Mus musculus with 7 samples.

Results

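The metallothioneins and the genes that sense and carry zinc were followed in MN9D cells, a mouse dopaminergic neuroblastoma line. The genes were the metallothionein genes Mt1, Mt2 and Mt3, the metal-response transcription factor gene Mtf1, the zinc exporter gene Slc30a1 and the zinc importer genes Slc39a6 and Slc39a7. They were chosen by name, with earlier results of these arrays known, and every probe set annotated to them was taken. This gave 10 of the 22626 probe sets tested, covering 7 of 12393 genes with a probe set of their own. The study hybridised total RNA of 4 samples labelled as MN9D cells that overexpress mouse hemoglobin, alpha and beta chains together, and of 3 samples of MN9D cells with an empty vector to Affymetrix 430A 2.0 arrays, and its stated purpose was to learn what globin does to the cells. The labels name no promoter, clone, culture or time point, so the p-values below measure the spread between these samples, which may be technical. The deposited values were RMA signals on the log2 scale. Differences are on the log2 scale and subtract the empty vector mean (n = 3 arrays) from the globin-labelled mean (n = 4 arrays), and each is printed with its standard error from the limma fit after ±.

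Metallothioneins are small, cysteine-rich proteins that bind zinc, copper and cadmium and buffer free zinc in the cytosol. MTF1, the product of Mtf1, binds free zinc and then activates genes that carry metal-response elements, among them Mt1, Mt2 and Slc30a1. Most transporters of the Slc30a family move zinc out of the cytosol, and those of the Slc39a family move it in. Mt1 and Mt2 are made in most tissues and respond to metals, oxidants and glucocorticoids, whereas Mt3 is known from brain neurons and Mt4 from stratified epithelia.

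The 4 metallothionein genes lie side by side on mouse chromosome 8, with Mt4 at 94137204 to 94139031, Mt3 at 94152607 to 94154148, Mt2 at 94172618 to 94173567 and Mt1 at 94178883 to 94180327 (RefSeq, GRCm38.p6). Promoter windows were found in the RefSeq table for 6 of the 7 genes. The windows of Mt1 and Mt2, whose signals were both far lower in the globin-labelled arrays, are shown with that of Mt3, their unshifted neighbour, and that of Slc30a1, another known MTF1 target. Each runs 5′ to 3′ over 300 bases, from 250 before the start site to 50 after it. The start site is the one used in the promoter table, which for Mt1 (94179089) lies 206 bases and for Slc30a1 (191906781) 84 bases inside the gene span of the RefSeq gene table, and for Mt2 and Mt3 is the first base of that span. Capitals mark matches to the core of the metal-response element, searched as TGCACNC and TGCGCNC on both strands.
Mt1, chr8:94178839-94179138, + strand: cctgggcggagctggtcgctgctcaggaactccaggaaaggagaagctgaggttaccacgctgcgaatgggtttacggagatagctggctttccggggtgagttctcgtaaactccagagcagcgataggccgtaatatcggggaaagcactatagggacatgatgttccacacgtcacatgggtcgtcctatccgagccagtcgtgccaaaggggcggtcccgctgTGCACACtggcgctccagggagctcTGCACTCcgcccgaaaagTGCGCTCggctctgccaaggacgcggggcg
Mt2, chr8:94172368-94172667, + strand: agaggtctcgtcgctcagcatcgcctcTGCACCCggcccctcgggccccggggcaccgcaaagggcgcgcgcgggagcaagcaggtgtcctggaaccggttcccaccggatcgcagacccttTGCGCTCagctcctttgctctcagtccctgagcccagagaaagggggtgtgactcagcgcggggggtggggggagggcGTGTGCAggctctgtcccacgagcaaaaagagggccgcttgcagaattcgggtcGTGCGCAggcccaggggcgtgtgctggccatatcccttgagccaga
Mt3, chr8:94152357-94152656, + strand: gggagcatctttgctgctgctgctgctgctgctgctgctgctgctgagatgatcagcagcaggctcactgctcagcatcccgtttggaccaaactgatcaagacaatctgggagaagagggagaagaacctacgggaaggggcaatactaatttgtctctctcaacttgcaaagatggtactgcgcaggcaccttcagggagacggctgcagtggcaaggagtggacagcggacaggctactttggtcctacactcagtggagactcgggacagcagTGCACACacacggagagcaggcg
Slc30a1, chr1:191906531-191906830, + strand: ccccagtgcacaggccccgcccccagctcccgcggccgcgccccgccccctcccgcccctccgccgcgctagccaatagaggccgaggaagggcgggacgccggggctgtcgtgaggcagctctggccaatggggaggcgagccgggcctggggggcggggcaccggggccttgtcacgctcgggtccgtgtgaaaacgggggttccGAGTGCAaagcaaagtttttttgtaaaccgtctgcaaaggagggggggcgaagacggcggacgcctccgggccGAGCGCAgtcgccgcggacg

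The Mt1 window held 3 matches, all on the forward strand, which began at -23, 2 and 20 from that start site (counted as 0). Bases beyond each window were not searched, so the counts hold for these windows and start sites only. The Mt2 window held 4 matches, 2 on each strand, which began at -223, -128, -50 and 4. The Slc30a1 window held 2 matches, both on the reverse strand, and that of Mt3 held 1. Of all 32851 promoter windows, 25.7% held at least 1 match, 7.11% at least 2, 1.97% at least 3 and 0.517% at least 4. The windows of Mtf1 and Slc39a7 held 0, which says only that these letters are not within them. A match is a description of the sequence, and binding was not measured here.

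Mt1 gave a signal of 10.39, 10.19, 10.41 and 10.25 in the globin-labelled arrays and of 12.25, 12.47 and 12.49 in the empty vector arrays on probe set 1422557_s_at. Every globin-labelled array lay well below every empty vector array. The difference was -2.09 ± 0.07, a 4.26-fold lower signal with a 95% confidence interval from -2.26 to -1.92. The second probe set of Mt1, 1451612_at, read 7.32, 7.33, 7.41 and 7.35 in the globin-labelled arrays and 7.43, 7.37 and 7.56 in the empty vector arrays. These groups overlapped, and the difference was -0.10 ± 0.05.

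The disagreement between the Mt1 probe sets was large. The bright one stood at the 69.3rd percentile of all probe sets in the globin-labelled arrays and at the 92.9th in the empty vector arrays, and the dim one at the 31.4th and the 33.1st. The annotation ties the bright set to accession NM_013602 and the dim set to BC027262, and the suffix _s_at marks a set whose probes match more than a single transcript, so signal of a close relative may enter the bright set. Which probe set follows Mt1 RNA was not tested. Of 109 genes that had at least 2 probe sets, with 1 of them shifted by at least 1 on the log2 scale, 20 (18.3%) had another probe set that did not pass limma's threshold.

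Mt2, the gene next to Mt1, gave 10.81, 10.78, 10.90 and 10.92 in the globin-labelled arrays and 12.42, 12.56 and 12.47 in the empty vector arrays. Here too the groups were far apart. The difference was -1.63 ± 0.05, a 3.10-fold lower signal (95% confidence interval from -1.75 to -1.52). By the size of the difference, in either direction, the Mt1 set ranked 39th and the Mt2 set 82nd among all probe sets.

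Mt3 gave 8.95, 8.95, 8.95 and 8.93 in the globin-labelled arrays and 8.91, 9.03 and 8.98 in the empty vector arrays. The groups overlapped, and the difference of -0.03 ± 0.04 had an interval from -0.12 to 0.06, so a shift of the size seen for Mt2 lay far outside it. Mt4 read 5.05, 4.99, 5.13 and 4.84 in the globin-labelled arrays and 4.95, 4.99 and 4.99 in the empty vector arrays. These values lie below the signal of the 10th percentile (5.36 to 5.44 by array), and Mt4 did not pass (0.03 ± 0.06, limma adjusted p = 0.757).

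**Figure D1:**
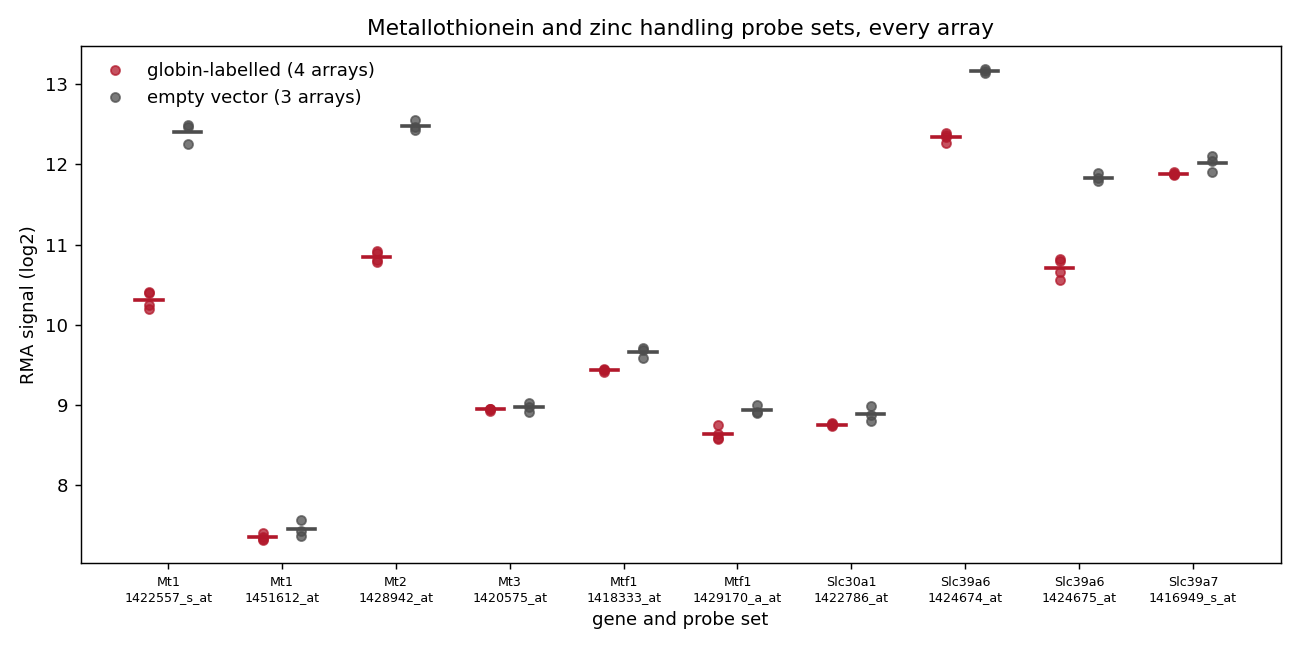
RMA signal (log2, vertical axis) of the 10 member probe sets (horizontal axis) on every array. Points are arrays, globin-labelled at the left of each pair and empty vector at the right, and bars are group means; the widest gap is that of Mt1 1422557_s_at (means 10.31 and 12.40), followed by Mt2 (10.85 and 12.48) and both sets of Slc39a6.

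Mtf1, the zinc sensor that drives metallothionein transcription, was slightly lower on both of its probe sets. On 1418333_at it read 9.45, 9.41, 9.44 and 9.44 in the globin-labelled arrays and 9.68, 9.59 and 9.71 in the empty vector arrays, a difference of -0.22 ± 0.04. On 1429170_a_at it read 8.58, 8.75, 8.64 and 8.57 in the globin-labelled arrays and 9.00, 8.90 and 8.92 in the empty vector arrays, a difference of -0.30 ± 0.05. The groups did not overlap on either set, and the folds were 1.17 and 1.23. Mtf1 lies on chromosome 4 at 124802549 to 124849800.

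Slc30a1, the exporter of zinc at the cell surface (chromosome 1, 191906697 to 191913248), gave 8.78, 8.76, 8.75 and 8.74 in the globin-labelled arrays and 8.99, 8.81 and 8.88 in the empty vector arrays. The groups lay side by side without overlap, with a narrow gap, and the difference was -0.13 ± 0.05 (95% confidence interval from -0.24 to -0.02). Its signal was thus 1.10-fold lower, against 4.26-fold for the bright Mt1 set and 3.10-fold for Mt2.

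Slc39a6, which encodes the zinc importer ZIP6, was the transporter of the set with the widest gap between the groups. On 1424674_at it read 12.26, 12.35, 12.37 and 12.40 in the globin-labelled arrays and 13.18, 13.13 and 13.16 in the empty vector arrays, a difference of -0.82 ± 0.04. On 1424675_at it read 10.83, 10.80, 10.66 and 10.56 in the globin-labelled arrays and 11.89, 11.83 and 11.79 in the empty vector arrays, a difference of -1.13 ± 0.07. Both sets, tied to the same accession (BB825002), showed groups that were far apart, with folds of 1.76 and 2.18.

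Slc39a7 encodes ZIP7, which releases zinc from the endoplasmic reticulum and Golgi into the cytosol (chromosome 17, 34028266 to 34031690). It read 11.90, 11.87, 11.88 and 11.88 in the globin-labelled arrays and 11.90, 12.10 and 12.05 in the empty vector arrays. The groups touched at empty vector array 1, and the difference was -0.13 ± 0.05.

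In all, the 10 probe sets, which stand for 7 genes, had negative differences, with that of Mt3 close to none (-0.03). Over all tested probe sets the median difference was 0.01. Of the 10, 6 passed limma's threshold of an adjusted p under 0.05, all 6 as lower, and 4 did not (Mt1 1451612_at and those of Mt3, Slc30a1 and Slc39a7). Slc30a1 passed without empty vector array 2 (-0.17) and Slc39a7 without empty vector array 1 (-0.19). Over all tested probe sets 39.5% passed, 21.2% as lower, and nothing is read from the members' count, since they were chosen with this contrast known. The groups did not overlap for 7 of the 10, against 43.5% of all probe sets. A difference below -1 was found for 3 of the 10 and for 0.535% of all probe sets.

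**Figure D2:**
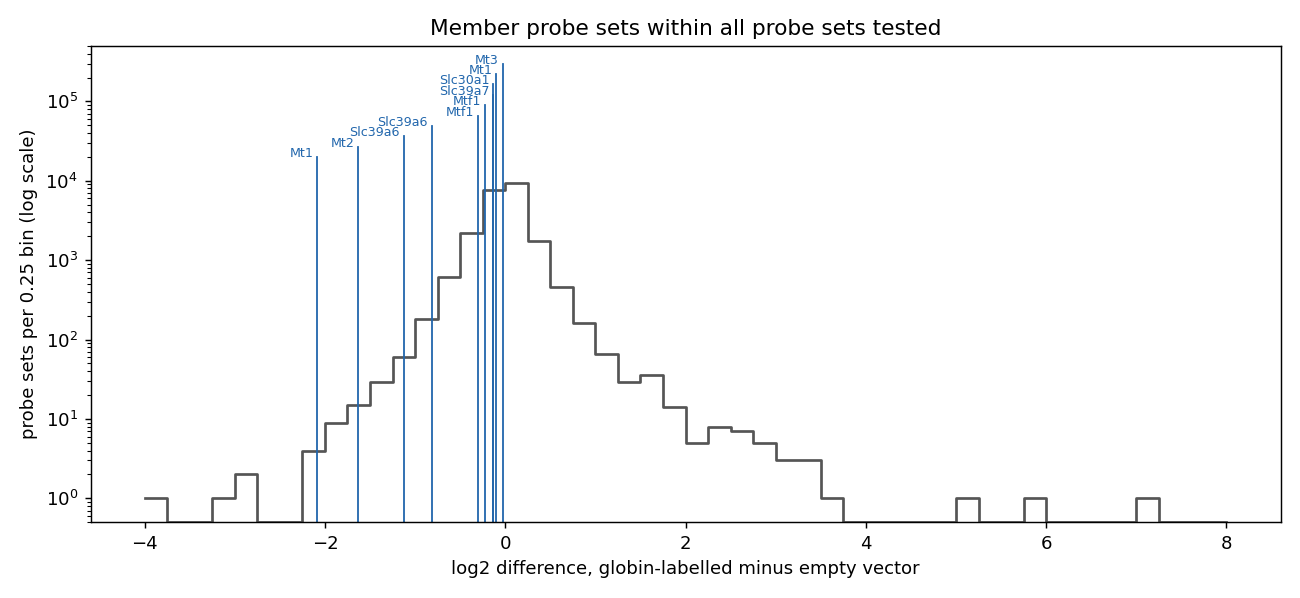
Number of probe sets (vertical axis, log scale) by log2 difference in steps of 0.25 (horizontal axis) for all 22626 probe sets, with the 10 member probe sets marked by labelled lines. Mt1 1422557_s_at (-2.09) and Mt2 (-1.63) lie in the sparse lower tail, and 6 of the marks lie between -0.30 and -0.03, in the bulk.

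The other zinc transporters did not share one direction. Of 22 genes listed, 16 had a probe set; 5 rose, 4 fell and 7 did not pass, against 40.7% of all genes passing (20.6% higher, 20.1% lower), and the median difference was 0.02, as it was over all genes (0.02). Slc39a8, which encodes ZIP8, an importer of zinc, manganese and cadmium, read 7.30, 7.53, 7.27 and 7.22 in the globin-labelled arrays and 6.25, 6.26 and 6.15 in the empty vector arrays. The groups were far apart, and the gene rose by 1.11 ± 0.07, or 2.15-fold (limma adjusted p = 4.83e-06). On its other probe set it rose by 1.66 ± 0.07, or 3.16-fold (limma adjusted p = 4.20e-07). In the empty vector arrays these sets stood at the 18.2nd and 11.5th percentile, so the folds are against dim signal.

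Slc30a9, a mitochondrial zinc exporter, rose by 0.39 ± 0.04 (limma adjusted p = 1.04e-04), and Slc39a4, the intestinal importer ZIP4, rose by 0.25 ± 0.05 (limma adjusted p = 0.00439). The 3 largest falls were in transporters that load zinc into vesicles and the early secretory pathway. Slc30a4 fell by 0.29 ± 0.04 (limma adjusted p = 4.93e-04). Slc30a5 fell by 0.24 ± 0.04 (limma adjusted p = 5.68e-04), as did Slc30a6, whose product pairs with that of Slc30a5, by 0.24 ± 0.04 (limma adjusted p = 7.67e-04). Such transporters of the Slc30a family did not all fall. Slc30a3 rose by 0.16 ± 0.05 (limma adjusted p = 0.0359) and Slc30a7 did not pass (0.13 ± 0.07), whereas Slc30a2 fell by 0.15 ± 0.05 (limma adjusted p = 0.0310). The count of rises was 3 without empty vector array 2, without empty vector array 3 or without globin-labelled array 4.

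**Figure D3:**
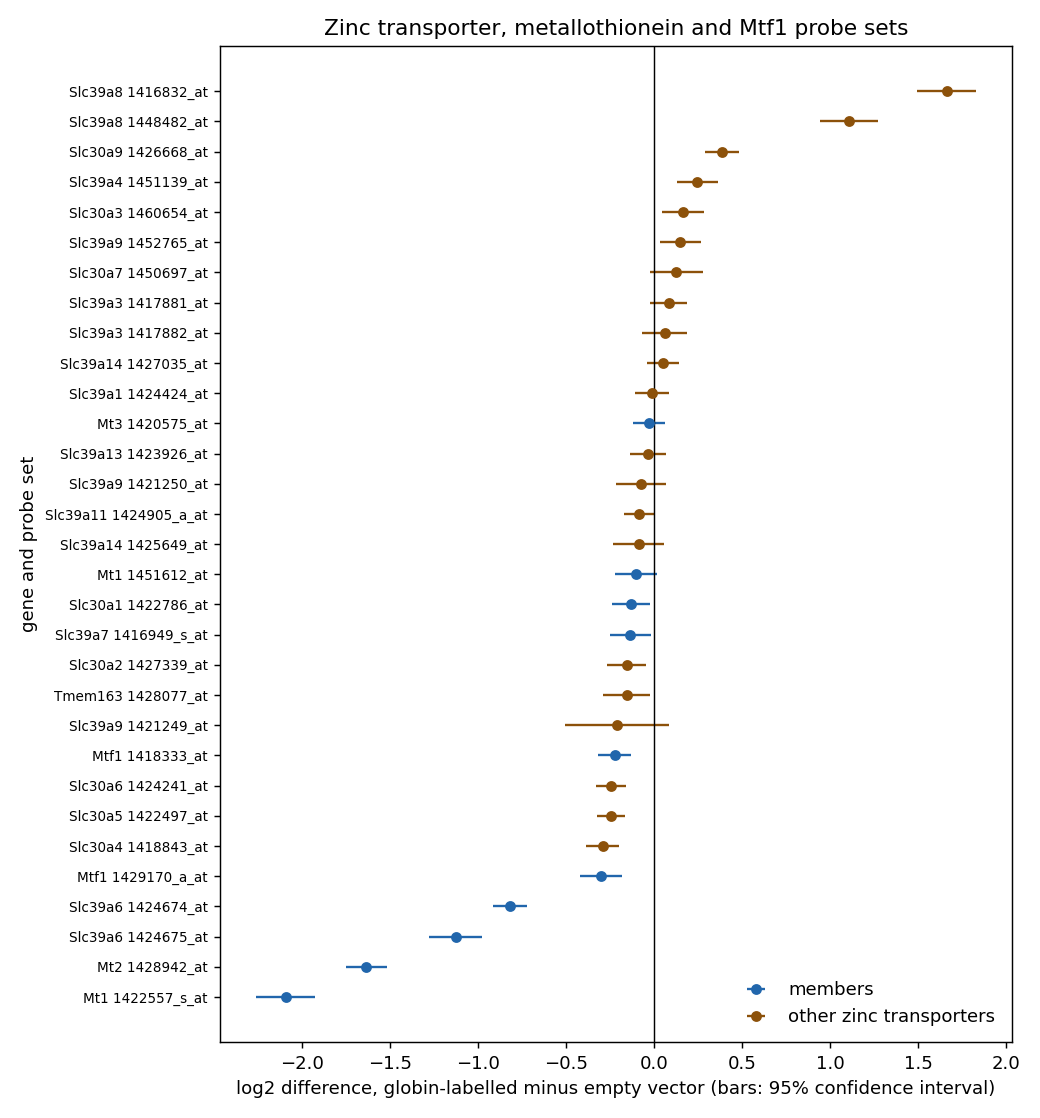
Log2 difference with its 95% confidence interval (horizontal axis) of each member probe set and of each probe set of the other zinc transporters (vertical axis, ordered by size). Slc39a8 stands alone at the top (1.66 and 1.11), and the bright Mt1 set, Mt2 and both Slc39a6 sets stand at the bottom.

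Other known targets of MTF1 moved both ways. Of 6 listed and measured genes 2 rose, 2 fell and 2 did not pass, or 66.7% passing against 40.7% of all genes, with a median of 0.10. Pgf, which encodes placental growth factor, rose by 0.76 ± 0.06 (limma adjusted p = 1.14e-05) and Selenow, a small selenoprotein gene, rose by 0.19 ± 0.04 (limma adjusted p = 0.00612). Csrp1, a LIM-domain protein gene, fell by 0.61 ± 0.05 (limma adjusted p = 1.76e-05), with -0.60 ± 0.05 on its other set. Gclc, the catalytic subunit of the enzyme that starts glutathione synthesis, fell by 0.29 ± 0.05 (limma adjusted p = 0.00126). Slc40a1 did not pass (0.13 ± 0.07), though its other set rose by 0.28 ± 0.08 (limma adjusted p = 0.0183). With the replicate number as a block, 1 of the listed genes rose in place of 2.

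Copper, which metallothioneins also bind, was followed through 13 measured genes of its uptake and delivery. Of these 2 rose, 3 fell and 8 did not pass, or 38.5% passing against 40.7% of all genes, with a median of 0.02. The copper importer gene Slc31a1 rose by 0.25 ± 0.04 (limma adjusted p = 0.00163), though its other probe set, at -0.02 ± 0.08, did not pass. Ccs, the copper chaperone of superoxide dismutase, rose by 0.21 ± 0.04 (limma adjusted p = 0.00183). Sco2, which delivers copper to cytochrome oxidase, fell by 0.56 ± 0.06 (limma adjusted p = 6.74e-05), Slc31a2 fell by 0.23 ± 0.05 (limma adjusted p = 0.00766) and Cox17, a mitochondrial copper chaperone, fell by 0.16 ± 0.04 (limma adjusted p = 0.0148).

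Other signals that metallothionein genes are known to answer to include glucocorticoids, oxidants and heat. Of 11 glucocorticoid-response genes 4 rose, 3 fell and 4 did not pass, or 63.6% passing against 40.7% of all genes, with a median of 0.09. Klf9 and Tsc22d3, known as direct targets of the receptor, rose by 0.57 ± 0.05 (limma adjusted p = 2.71e-05) and 0.45 ± 0.05 (limma adjusted p = 6.66e-05). Cebpd rose by 0.66 ± 0.05 (limma adjusted p = 1.42e-05), with 0.05 ± 0.11 on a dim second set that did not pass. Sgk1 fell by 0.86 ± 0.04 (limma adjusted p = 9.56e-07), the phosphatase gene Dusp1 fell by 0.61 ± 0.05 (limma adjusted p = 2.02e-05) and the receptor gene Nr3c1 fell by 0.15 ± 0.05 (limma adjusted p = 0.0233). The call of Nr3c1 on this set was lost without empty vector array 1 (limma adjusted p = 0.0657), without empty vector array 2 (0.0676), without globin-labelled array 2 (0.0535), without both arrays with the lowest hybridisation controls (0.111), with quantile normalization (0.0539) and with the replicate number as a block (0.116), and its other 2 sets fell by 0.20 ± 0.04 and 0.30 ± 0.08.

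Among 14 measured genes of the NRF2 oxidant response 7 fell, 2 rose and 5 did not pass. That is 64.3% passing against 40.7% of all genes, and the median was -0.14. Over all genes 20.1% fell and 20.6% rose. Among the 7 that fell was Gclc, which is also counted with the MTF1 targets. Hmox1, heme oxygenase 1, fell by 0.64 ± 0.08 (limma adjusted p = 2.05e-04), Srxn1, which repairs peroxiredoxins, fell by 0.38 ± 0.04 (limma adjusted p = 1.52e-04) and the cystine importer gene Slc7a11 fell by 0.34 ± 0.08 (limma adjusted p = 0.00869). One dim set of Srxn1 did not pass (0.00 ± 0.05). Abcc1, a glutathione-conjugate pump, rose by 0.45 ± 0.05 (limma adjusted p = 6.48e-05) and the gene of ferritin's heavy chain, Fth1, rose by 0.39 ± 0.04 (limma adjusted p = 1.04e-04). Without the pair of arrays with the lowest hybridisation controls, which were singled out after seeing the data, 6 fell and 2 rose, and Slc7a11 did not pass (limma adjusted p = 0.0879).

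Of 9 heat shock genes 4 rose, 2 fell and 3 did not pass, or 66.7% passing against 40.7% of all genes, with a median of 0.06. The inducible chaperone gene Hspa1b rose by 1.43 ± 0.09 (limma adjusted p = 3.64e-06), and its 2 dimmer sets rose by 1.52 ± 0.08 and 1.76 ± 0.06. Its near-identical copy Hspa1a rose by 0.54 ± 0.10 (limma adjusted p = 0.00281), and the probe sets of such copies can share signal. Hsph1, a disaggregating chaperone gene, rose by 0.22 ± 0.04 (limma adjusted p = 0.00136). Hspa8 did not pass on its brightest set (0.06 ± 0.04), though a dimmer set rose by 0.85 ± 0.06 (limma adjusted p = 1.12e-05). Its other sets did not pass. Bag3 and Hspb8, partners in chaperone-assisted autophagy, fell by 0.43 ± 0.06 (limma adjusted p = 3.17e-04) and 0.42 ± 0.04 (limma adjusted p = 2.63e-05).

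**Figure D4:**
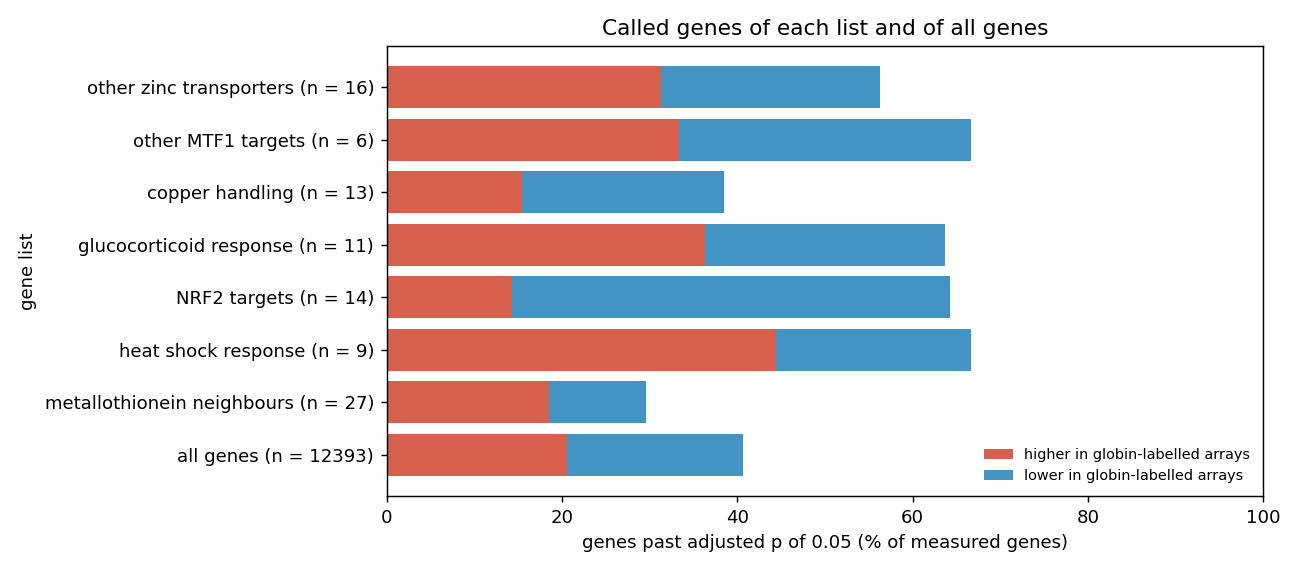
Share of measured genes (horizontal axis, percent) past an adjusted p of 0.05, higher or lower in the globin-labelled arrays, for each pathway list and the neighbours of the cluster (vertical axis), with all 12393 genes at the bottom. Both colours are present in every list, and the lower share is widest for NRF2 targets (7 of 14 genes).

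Genes near the metallothionein cluster rose or fell in small numbers and by less than Mt1 and Mt2. Within 1000 kb on either side of Mt1 the RefSeq table held 62 other genes, of which 27 had a probe set. Of these 5 rose and 3 fell, or 29.6% passing against 40.7% of all genes, with a median of -0.00. Of all 12393 genes, 938 had a mean signal below the 10th percentile of probe sets, and so did 5 of the 27 neighbours. The nearest that passed were Nup93, a nuclear pore gene 91.7 kb to one side, which rose by 0.26 ± 0.04 (limma adjusted p = 3.79e-04), and Bbs2, a gene of the ciliary BBSome 95.9 kb to the other, which fell by 0.22 ± 0.07 (limma adjusted p = 0.0277). The call of Bbs2 was lost without any one of empty vector arrays 1 and 2 and globin-labelled arrays 2 and 4 (limma adjusted p from 0.0527 to 0.106). Cpne2 and Arl2bp fell by 0.44 ± 0.04 (limma adjusted p = 3.68e-05) and 0.33 ± 0.04 (limma adjusted p = 1.53e-04). Ccdc102a rose by 0.52 ± 0.06 (limma adjusted p = 1.58e-04), Dok4 by 0.27 ± 0.05 (limma adjusted p = 0.00286), the chemokine gene Cx3cl1 by 0.25 ± 0.06 (limma adjusted p = 0.0116) and the kinesin gene Kifc3 by 0.21 ± 0.04 (limma adjusted p = 0.00525). On the brightest set of each gene the differences of these neighbours ran from -0.44 to 0.52, beside -1.63 for Mt2 and -2.09 for the bright Mt1 set. Dimmer sets of Cx3cl1 and Arl2bp differed by 0.55 and -0.48.

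**Figure D5:**
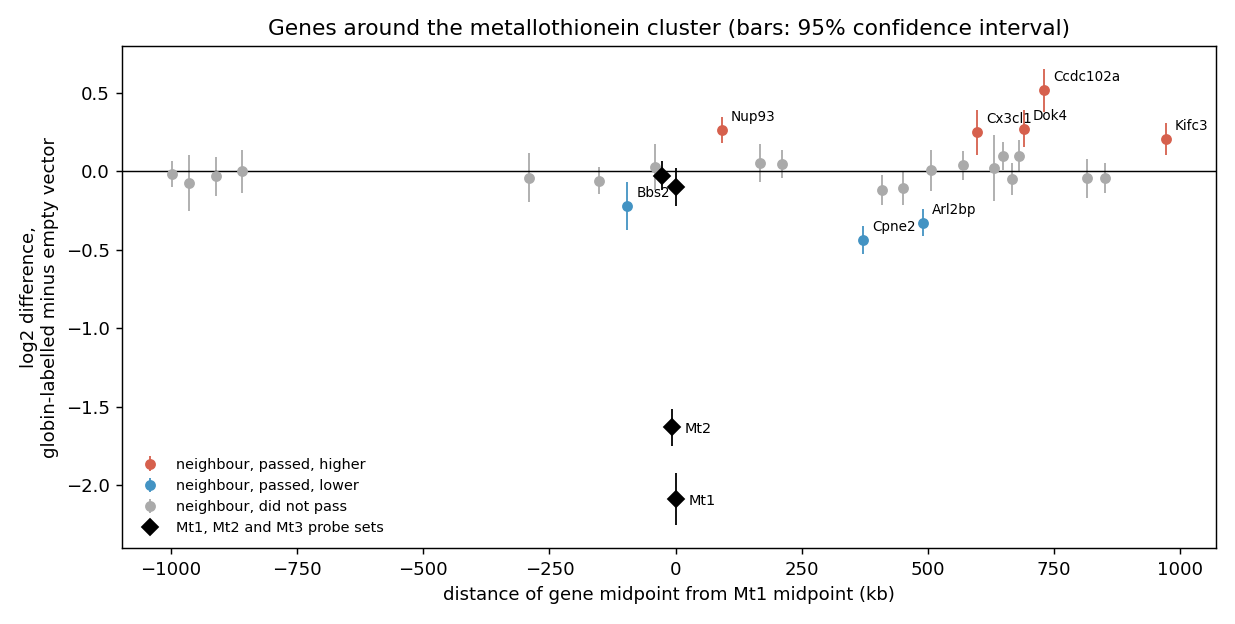
Log2 difference with its 95% confidence interval (vertical axis) of 27 genes around the metallothionein cluster by the distance of their midpoint from that of Mt1 in kb (horizontal axis). Each neighbour is shown by its brightest set, and these stay between -0.44 and 0.52, while the bright Mt1 set and Mt2 (diamonds) lie at -2.09 and -1.63 and Mt3 and the dim Mt1 set lie near 0.

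The genes whose profile over the 7 arrays lay closest to that of the bright Mt1 set, by root mean square difference after each profile's own mean was subtracted, were Lgals3, which encodes galectin-3 (0.0960), Tha1, a threonine aldolase (0.116), Aqp3, a water and glycerol channel (0.144), Gla, a lysosomal galactosidase (0.161), and Gca, a calcium-binding protein gene (0.171). For comparison that distance was 0.242 for Mt2. The distance depends on the size of the group difference, which was -1.63 for Mt2 and -2.09 for the bright Mt1 set. All 5 were picked for their likeness to Mt1, so their differences of -2.04 for Lgals3, -1.88 for Tha1, -1.98 for Aqp3, -1.83 for Gla and -1.89 for Gca are a description with no test.

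Of the labelled transgene, 3 probe sets shared by Hba-a1 and Hba-a2 were 35.8-fold to 142-fold higher in the globin-labelled arrays. The set of Hba-a2 alone and that of Hba-a1 alone did not pass (-0.03 and 0.03). The 3 adult beta-globin sets differed by at most 1.26-fold, so the arrays are called globin-labelled. A set of Hbb-b2 passed as higher (0.34 ± 0.07, limma adjusted p = 0.00558), and the other beta-globin sets did not pass. Of 5 dopaminergic markers, Th averaged 11.08 in globin-labelled and 11.78 in empty vector arrays and Ddc 9.85 and 10.07, both lower, whereas Slc6a3 (6.36 and 6.33), Pitx3 (7.25 and 7.19) and Nr4a2 (8.04 and 8.17) did not pass on their brightest sets. That is 40% passing against 40.7% of all genes. The dimmer set of Nr4a2 fell by 0.28 ± 0.06 (limma adjusted p = 0.00393). Of 18 measured markers of erythroid cells, astrocytes, fibroblasts and macrophages, 1 rose (Slc4a1, 0.29 ± 0.08, limma adjusted p = 0.0210, lost without any one of empty vector arrays 1 and 2 and globin-labelled array 2) and 1 fell. That was Cd68, a lysosomal protein gene used as a macrophage marker, which fell by 1.25 ± 0.09 (limma adjusted p = 1.16e-05). The passing share was 20% for erythroid, 25% for macrophage and 0% for astrocyte and fibroblast markers, against 40.7% of all genes. The defining macrophage genes Ptprc (4.35 and 4.44) and Aif1 (5.38 and 5.39) stood at or below the arrays' 10th percentile in both groups, and Csf1r read 7.76 and 7.65. The summed signal of the macrophage list was 8.50 to 8.75 in the globin-labelled and 9.01 to 9.10 in the empty vector arrays (log2), that of the astrocyte list 9.06 to 9.18 and 9.10 to 9.14, that of the erythroid list 9.07 to 9.19 and 9.05 to 9.17, and that of the fibroblast list 8.62 to 8.80 and 8.69 to 8.74. The macrophage sum includes Cd68 (6.81 and 8.06), the only gene of that list that passed, so it is not a separate measure. The part of other cell types in the metallothionein values was not tested, and in bulk RNA fewer cells making a transcript and less of it per cell cannot be told apart.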

How the data were processed

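The log2 values that the authors deposited are RMA signals, per the submitters' processing notes, made from biotin-labelled total RNA on mouse 430A 2.0 arrays; no software version is given in the sources used here. RMA brings all arrays to a common intensity distribution, which hides any shift that most transcripts share, and it compresses folds at either end of the range. All 7 columns were used as deposited. Array medians lay between 8.90 and 8.94, and precision is limited by the number of arrays. The table has 22690 probe sets, of which 64 are array controls and were left out. The platform annotation gave 1 symbol for 20380 sets, several for 691 and none for 1555.

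limma 3.58.1 (R 4.3.3; lmFit and eBayes, two-sided) compared the groups with no further term, and p was adjusted by Benjamini-Hochberg over 22626 probe sets; adjusted p values are from this fit unless another setting is named, and it was tested on simulated data. Lists count 1 probe set a gene, that with the highest mean, so a dimmer set may pass where its gene is counted as not passing. Members, lists and alternatives were chosen with earlier results of these data known, so member values are printed without p. Whether a member passed the threshold is given as a description only. Named were every member, up to 3 passing genes in each direction of a list, all passing neighbours with Mt4, the 5 profiles most like Mt1, and markers. Hspa8 and Slc40a1 were added as examples of a dimmer set that passed. Slc30a2, Slc30a3 and Slc30a7 were added for comparison and, like Hspa8 and Slc40a1, are not among the probe sets examined in the closing sections. Same-numbered arrays did not deviate together (correlations of -0.31, -0.34 and -0.23), so the numbers were not used as pairs. Promoter windows are from RefSeq, GRCm38.p6.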

Additional observations from a re-analysis of the deposited data

Results flagged for a closer look

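The members, the brightest sets of the passing genes named from the lists and of Mt4, the profiles most like Mt1 and the adult globins made 67 probe sets that were examined for arrays standing apart. Of these, 2 had 1 globin-labelled array set apart from the other 3 by more than Dixon's critical ratio, where chance flags about 1 in 20. Slc30a4 read 11.54 in globin-labelled array 1, against 11.62 to 11.63 in the others, a small step in a tight group. Hmox1 read 9.09 in globin-labelled array 4, against 9.37 to 9.40 in the others, and this array had the lowest mean of the hybridisation controls (9.24). Both genes passed as lower without the array in question.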

How the results depend on the processing

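The fit called 8931 probe sets, 7803 to 8271 with any one array left out, 8842 without the dimmest 25% of probe sets, 8974 and 8963 with median centring and quantile normalization and 6337 with the replicate number as a block. Member differences kept their sign throughout, except Mt3, which ranged from -0.06 to 0.00. Mt1 1422557_s_at ranged from -2.16 to -2.05, Mt2 from -1.69 to -1.60, Slc39a6 from -0.83 to -0.79 and from -1.16 to -1.05, and Mtf1 from -0.26 to -0.20 and from -0.34 to -0.25. Slc30a1 and Slc39a7 passed in 2 and 4 of 13 alternatives each. With the replicate block, the zinc transporters that rose numbered 3 and the MTF1 targets that rose 1; the block changed no other list count by over 1.5 times. The rises among zinc transporters numbered 3 to 5 with any one array left out. With the smallest p of each gene, 5 copper genes and 5 neighbours fell. The cause was not tested. Of 734 values for 57 other probe sets of named genes, 713 kept their side of the threshold and 21 lost it. No call changed direction, and 2 values, of Mt4 and of the set of Hba-a1 alone, neither of them called, changed sign. Without both arrays with the lowest hybridisation controls, chosen after seeing the data, 7375 probe sets passed, with 5 zinc transporters higher and 3 lower and 4 neighbours higher and 2 lower, and Slc31a2 (limma adjusted p = 0.0660), Cx3cl1 (0.0560), Slc7a11 (0.0879), Nr3c1 (0.111), Bbs2 (0.125) and Slc4a1 (0.126) did not pass. In the block fit, Selenow (limma adjusted p = 0.0738), Cox17 (0.0659), Nr3c1 (0.116) and Bbs2 (0.117) did not pass. The labels give no culture, batch or scan date, and background signal was not measured.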
